A study of Mus musculus with 10 samples.

Results

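Complement genes were described in myeloid cells sorted from the inflamed mouse spinal cord, comparing cells that did and did not express arginase 1 (ARG1). The 9 genes were C1qa, C1qb and C1qc (the chains of C1q), C3, Cfb and Cfp (the alternative pathway), Serping1 (a regulator), and C3ar1 and C5ar1 (receptors), taken by gene name from a count table of 55487 genes, in which each name was found. All 10 libraries were made from spinal cord cells of 5 mice, males of the C57BL/6 background and the Arg1tm1Lky reporter genotype aged 8 to 12 weeks, in which yellow fluorescent protein (YFP) marks cells that transcribe Arg1. In every animal experimental autoimmune encephalomyelitis (EAE), a T cell-driven model of multiple sclerosis, was raised by immunization with a myelin peptide in complete Freund's adjuvant with pertussis toxin, and cells were taken at peak disease. From each animal (m2, m6, m234, m235 and m236), viable Ly6G-CD3-CD45+CX3CR1+ cells gave an ARG1+ library from 200000 YFP+ cells and an ARG1- library from 100000 YFP- cells. There were no animals without EAE, and the gate keeps monocyte-derived cells, border-associated macrophages and microglia together, so that a different mix of cells and a different RNA content per cell cannot be told apart in these bulk libraries.

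Complement is a cascade of proteins that tags targets, recruits leukocytes and can lyse membranes. The classical pathway begins when C1q, built from the A, B and C chains, binds a target and its partner proteases C1r and C1s cut C4 and C2. The alternative pathway amplifies C3 cleavage through factor B (Cfb) and is stabilized by properdin (Cfp). C1 inhibitor (Serping1) blocks C1r and C1s, and the fragments C3a and C5a act on C3AR1 and C5AR1. In the central nervous system, microglia and macrophages are main producers of C1q, and complement is known for tagging synapses and myelin debris for uptake.

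Library totals ran from 28870482 to 33826355 counts in the ARG1+ group and from 8396863 to 35455643 in the ARG1- group, the ARG1- library of m234 being the smallest. Levels are given in CPM, counts scaled to a common library total, and 1 CPM stood for 8.40 counts in the smallest and 35.5 in the largest library. Arg1 itself ran from 579 to 1050 CPM in ARG1+ and from 14.4 to 27.9 CPM in ARG1- libraries, a log2 fold change of 5.45, as the sort labels say. The gate's Ptprc (CD45) and Cx3cr1 were present in all libraries. Neither passed the edgeR test, with log2 fold changes of -0.22 (FDR 0.0690) and -1.01 (FDR 0.153). With the animal as a block both were lower in ARG1+ cells (edgeR FDR 0.00192 and 9.24e-05). Of 8 T cell markers, 7 stayed under 1 CPM in each library. The remaining T cell marker, Il7r, ran from 178 to 324 CPM in ARG1+ and from 100 to 176 CPM in ARG1- libraries. It passed the edgeR test as higher in ARG1+ cells (log2 fold change 0.90). Of 10 neutrophil markers 5 stayed under 1 CPM in each library, Ly6g among them. The summed level of the 10 was 130 to 314 CPM in ARG1+ and 67.3 to 188 CPM in ARG1- libraries. This sum was higher in ARG1+ in all 5 animals, most of it from Mmp8. Of the 3 tested, only S100a9 passed the edgeR test, and it was lower in ARG1+ (log2 fold change -3.40, mean 0.239 against 2.50 CPM). Its highest ARG1+ library held 0.352 CPM. It was thus above the filter on low counts through ARG1- libraries alone, and its call carries that limit. Mmp8 and S100a8 had positive fold changes and passed only with the animal as a block. Of 10 microglia markers, all 10 had a negative fold change and 0 passed the edgeR test, 6 having an unadjusted p below 0.05 and 8 passing with the animal as a block. Their summed level was 757 to 1180 CPM in ARG1+ and 847 to 3330 CPM in ARG1- libraries, none of the 10 being at 0, and the highest sum was that of the ARG1- library of m234, the next highest being 1660 CPM. The summed level of 9 border-associated macrophage markers was 1570 to 2440 CPM in ARG1+ and 879 to 1500 CPM in ARG1- libraries, with Cd163, Lyve1 and Folr2 near 0. The part of these markers in the results below was not tested. Correlations with them given below are descriptions.

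Levels of the 9 genes spanned a wide range. Per kilobase of exon, C1qb stood highest in ARG1+ libraries at 1180 ± 295 CPM per kb (SD, n = 5), followed by C1qa at 718 ± 201, C1qc at 634 ± 177 and C3 at 510 ± 48.8 CPM per kb. Neighbours within these 4 overlapped in range. Cfp followed at 114 ± 25.6 CPM per kb, clear of C3 above it and of C3ar1 below it at 68.0 ± 7.57 CPM per kb, and C3ar1 overlapped C5ar1 at 64.4 ± 9.12 CPM per kb. Cfb at 12.8 ± 3.35 and Serping1 at 0.432 ± 0.404 CPM per kb were each clear of the gene above. In ARG1- libraries the order was the same except that C5ar1 (69.1 ± 5.54 CPM per kb) stood above C3ar1 (61.7 ± 3.33 CPM per kb), with overlapping ranges, and Cfp (89.2 ± 19.99 CPM per kb) overlapped C5ar1. For Cfb, 81.6% of the exon bases also lie in the annotated transcript Gm20547, which had 0 counts in all libraries, and reads that fall in both genes are not counted in the mode the authors used, so its level per kilobase is not on the same footing as the others.

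**Figure D1:**
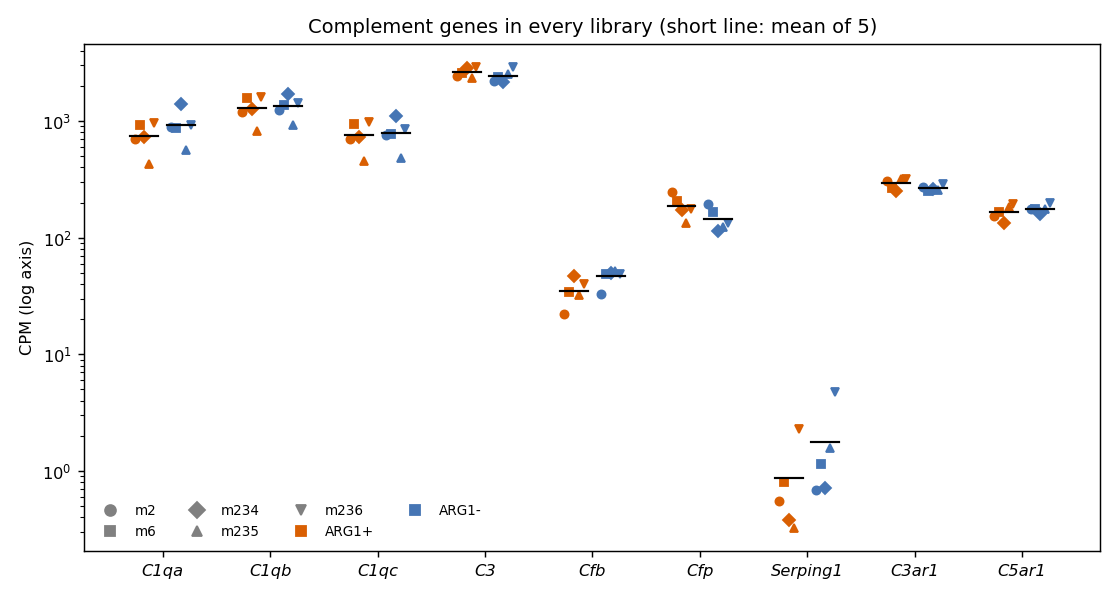
Level of the 9 complement genes in each library, in CPM on a log axis. Orange marks ARG1+ and blue ARG1- libraries, the shape marks the animal, and the short line is the mean of 5; the groups overlapped for every gene, from C3 above 2000 CPM to Serping1 near 1 CPM.

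To ask whether complement transcripts differed between ARG1+ and ARG1- cells, all 13740 genes above the filter were tested with edgeR's quasi-likelihood test and p-values were adjusted by Benjamini-Hochberg (FDR). None of the 9 genes passed an FDR of 0.05: 0 were called higher and 0 lower, where 13% of all tested genes were called, 6.82% higher and 6.15% lower. With an absolute log2 fold change above 1 required too, 0 of the 9 and 1.45% of all tested genes passed (0.56% higher and 0.888% lower). At an unadjusted p below 0.05 there were 2, Cfp and C3ar1, both higher in ARG1+ cells, and limma-trend and DESeq2 also called 0. The median log2 fold change of the 9 was -0.019, against -0.0022 over all tested genes. In CPM the groups overlapped for all 9 genes, whereas 12% of tested genes had groups that did not overlap (4.43% higher and 7.61% lower). Exact two-sided permutation tests of each gene gave p from 0.0714 to 0.825, the smallest that 5 against 5 allows being 0.00794. These tests took the libraries as unpaired, leaving out which of them shared a mouse.

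Both libraries of a pair came from 1 mouse, and with the animal as a block 4 of the 9 genes passed, where 35.1% of all tested genes did. Cfp and C3ar1 were then higher in ARG1+ cells (16.8% of tested genes were called higher), and Cfb and Serping1 lower (18.3% called lower). Serping1 was above the filter on low counts through its ARG1- libraries, so its call carries that limit. Within animals, 3 of the 9 genes went the same way in all 5 mice, where 42.2% of tested genes did. Cfp was higher in each (15.9% of tested genes were), and Cfb and Serping1 were lower in each (26.3% were). The other 6 were mixed. These directions are in CPM, where the median log2 fold change of all tested genes was -0.043, against -0.0022 in the main fit. A small difference within an animal can therefore depend on the scale.

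**Figure D2:**
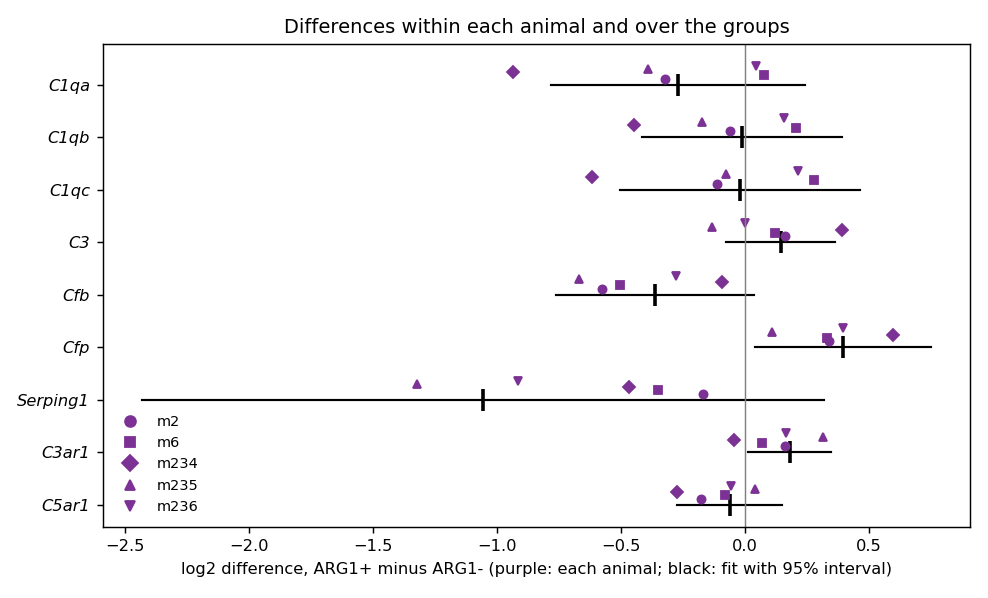
Difference between the ARG1+ and ARG1- library of each animal (purple, log2 of CPM + 0.5) and the edgeR log2 fold change with its 95% interval (black) for the 9 genes. Cfp lies to the right of 0 and Cfb and Serping1 to the left in all 5 animals, while the C1q genes lie on both sides.

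The C1q chains were abundant and their levels in the groups overlapped. C1qa (ENSMUSG00000036887, GRCm38 chr4:136895917-136898803, reverse strand) encodes the A chain. Its level in m2, m6, m234, m235 and m236 was 706, 917, 730, 428 and 953 CPM in ARG1+ libraries and 882, 870, 1396, 560 and 924 CPM in ARG1- libraries. In 3 animals ARG1+ cells had less of it and in 2 more, with a log2 fold change of -0.27 (SE 0.235, 95% interval -0.78 to 0.24, edgeR FDR 0.473). C1qb, the B chain (ENSMUSG00000036905, chr4:136880129-136886187, reverse strand), read 1194, 1582, 1258, 817 and 1594 CPM in ARG1+ and 1244, 1372, 1714, 922 and 1430 CPM in ARG1- libraries of the same animals. Its log2 fold change was -0.011 (SE 0.186, 95% interval -0.42 to 0.39, FDR 0.977). C1qc, the C chain (ENSMUSG00000036896, chr4:136889804-136893065, reverse strand), read 701, 944, 725, 457 and 987 CPM against 759, 777, 1112, 482 and 850 CPM, a log2 fold change of -0.019 (SE 0.222, 95% interval -0.50 to 0.46, FDR 0.968). For each chain the lowest library of both groups was that of m235, and the highest ARG1- library was that of m234.

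The 3 genes lie next to each other on the reverse strand of chromosome 4, and C1qb and C1qc followed each other most closely. Over the 10 libraries their log2(CPM + 0.5) values correlated at r = 0.992, the highest value each had with any of 8623 genes searched, while C1qa correlated with C1qb at r = 0.949 and with C1qc at r = 0.955; the libraries of an animal share that animal, and these values are descriptions. The bases just before the starts of C1qb (chr4:136886201-136886450) and C1qc (chr4:136893066-136893164) are shown because these genes moved together. They are on the reverse strand, 5′ to 3′, from RefSeq promoter windows of GRCm38.p6 and kept outside the transcripts, with matches to 2 motifs in capitals. The first is GAGGAA, the core that PU.1 binds. The second is the half-MARE, TGCTGA. Both strands were searched, so a match on the other strand shows as the reverse complement, and the matches do not overlap.
C1qb: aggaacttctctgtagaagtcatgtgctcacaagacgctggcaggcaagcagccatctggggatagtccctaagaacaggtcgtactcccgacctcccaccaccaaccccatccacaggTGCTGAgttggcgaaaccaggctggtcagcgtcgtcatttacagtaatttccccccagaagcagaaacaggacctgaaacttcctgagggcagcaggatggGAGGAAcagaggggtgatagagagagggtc
C1qc: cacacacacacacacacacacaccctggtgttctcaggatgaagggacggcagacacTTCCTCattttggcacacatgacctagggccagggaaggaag
Both windows held 1 PU.1 core, a word found in 23.3% of all 32851 RefSeq promoter windows at 250 bases and in 9.91% at 99 bases. C1qb also held 1 half-MARE, found in 16.1% at 250 bases. Neither held the interferon motifs searched on both strands, GAS (TTCNNNGAA) and the ISRE core, which 7.02% and 2.98% of windows of 250 bases held. A match is a description of letters only. Windows of 6 of the 9 genes were used; those of C1qa, Cfb and Serping1 were not used here.

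The ratio of C1qa to the other 2 chains was lower in ARG1+ cells. This ratio was chosen after the values were seen and has no test. Counts of C1qa per count of C1qb were 0.592, 0.580, 0.580, 0.523 and 0.598 in the ARG1+ libraries of m2, m6, m234, m235 and m236, and 0.709, 0.634, 0.815, 0.608 and 0.646 in their ARG1- libraries. The ratio was lower in the ARG1+ library of all 5 animals and the groups did not overlap (0.574 ± 0.0296 against 0.682 ± 0.0828, SD, n = 5, a log2 difference of -0.242). Of 13739 other tested genes set over C1qb in the same way, 1.89% had groups that did not overlap. Those genes were not picked for following C1qb as C1qa does (r = 0.949). The share therefore does not say how rare this result is. C1qa over C1qc likewise did not overlap (0.936 to 1.01 in ARG1+ and 1.09 to 1.26 in ARG1- libraries). The share for other genes over C1qc was 1.5%, with the same limit. C1qc over C1qb had overlapping groups with means of 0.588 in both. The microglia marker sum, which was lower in the ARG1+ library of all 5 animals, moved with C1qa over C1qb (r = 0.944 over the 10 libraries, and 0.87 without the ARG1- library of m234). Without that library the log2 difference was -0.176, and the groups still did not overlap.

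**Figure D3:**
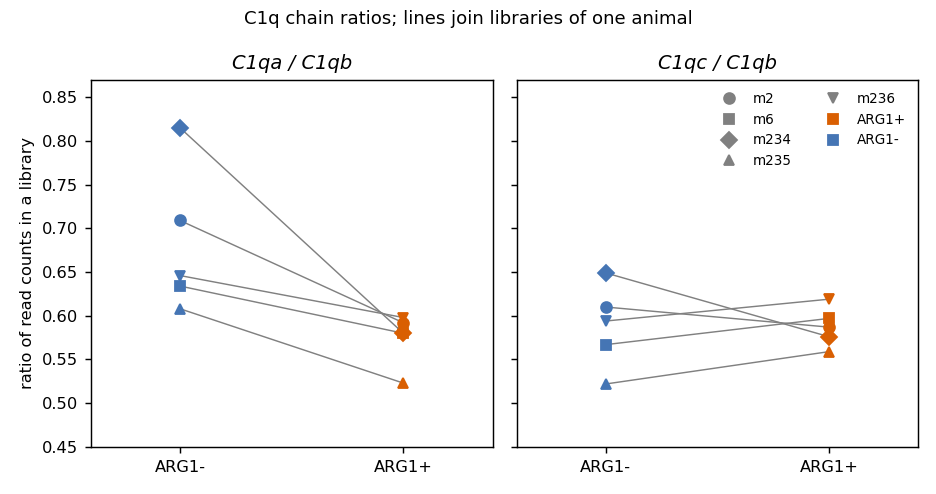
Ratio of read counts of C1qa to C1qb (left) and of C1qc to C1qb (right) in each library, with lines joining the libraries of 1 animal; the axis does not start at 0. C1qa over C1qb was lower in the ARG1+ library of all 5 animals (0.523 to 0.598 against 0.608 to 0.815), and C1qc over C1qb overlapped.

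The microglia markers also moved with the levels of the C1q genes. Over the 10 libraries the marker sum correlated with C1qa at r = 0.854, with C1qb at r = 0.671 and with C1qc at r = 0.721, and with C3 at r = -0.396, and without the ARG1- library of m234 the values were 0.812, 0.648, 0.686 and 0.0086. Without that library the log2 fold changes of C1qa, C1qb and C1qc were -0.072, 0.096 and 0.13 (edgeR FDR 0.852, 0.766 and 0.717). The fold changes of C1qb and C1qc thus turned in direction without being called in either case, and that of C1qa shrank by more than 1.5 times.

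**Figure D4:**
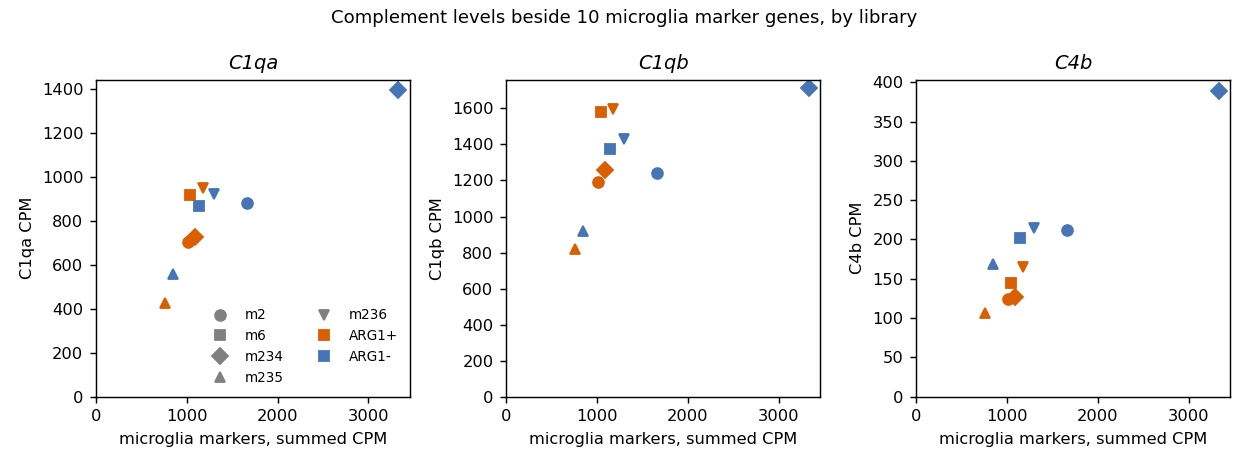
Level of C1qa, C1qb and C4b in each library against the summed level of 10 microglia markers, all in CPM. The ARG1- library of m234 (blue diamond) stands apart at 3330 CPM of markers and is highest for all 3 genes.

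In the alternative pathway, C3 overlapped between the groups while Cfb and properdin went opposite ways within every animal. C3, the central protein of all pathways (ENSMUSG00000024164, chr17:57203970-57228136, reverse strand), read 2444, 2577, 2849, 2327 and 2903 CPM in ARG1+ and 2186, 2369, 2170, 2551 and 2901 CPM in ARG1- libraries. In 4 animals ARG1+ cells had more of it and in m235 less, with a log2 fold change of 0.14 (SE 0.100, 95% interval -0.074 to 0.36, edgeR FDR 0.360, and 0.125 with the animal as a block). Block fits without m2, m6, m234 or m236 gave an FDR of 0.127 to 0.3. Only the fit without m235, the animal that went the other way, passed (FDR 0.0468). Factor B (Cfb, ENSMUSG00000090231, chr17:34856374-34862518, reverse strand), the protease of the C3 convertase, read 22.1, 34.2, 47.0, 32.5 and 39.9 CPM in ARG1+ and 33.2, 48.7, 50.1, 52.0 and 48.4 CPM in ARG1- libraries. Each animal had less in its ARG1+ than in its ARG1- cells, and both libraries of m2 were the lowest of their group, so the groups overlapped. The log2 fold change was -0.36 (SE 0.183, 95% interval -0.76 to 0.038, FDR 0.208), and -0.23 (FDR 0.361) without the ARG1+ library of m2. With the animal as a block it was -0.40 (SE 0.0773, FDR 0.00333) and passed whichever animal was left out. Among the genes searched, its libraries followed most closely those of the chemokine Ccl5 (r = 0.931) and of Plaat3 (r = 0.929).

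Properdin (Cfp, ENSMUSG00000001128, chrX:20925454-20931555, reverse strand) went the other way. It read 244, 208, 173, 133 and 176 CPM in the ARG1+ libraries of m2, m6, m234, m235 and m236 and 193, 165, 114, 123 and 134 CPM in ARG1- libraries. The ARG1+ library was the higher in all 5 animals, by 0.11 to 0.60 on the log2 scale, and both libraries of m2 were the highest of their group. The log2 fold change was 0.40 (SE 0.163, 95% interval 0.040 to 0.75, edgeR FDR 0.126). With the block it was 0.39 (SE 0.0598, FDR 0.00083), and it passed whichever animal was left out. Smarcc2, a chromatin remodelling subunit, followed it most closely (r = 0.989). Cfp counts per Cfb count, a ratio picked after the values were seen, were 3.69 to 11.1 in ARG1+ and 2.28 to 5.82 in ARG1- libraries, higher in ARG1+ in all 5 animals and overlapping between groups. Properdin's window (chrX:20931556-20931805, reverse strand, same source) is shown because Cfp passed with the block and was higher in all 5 animals; none of the 4 motifs was in it.
Cfp: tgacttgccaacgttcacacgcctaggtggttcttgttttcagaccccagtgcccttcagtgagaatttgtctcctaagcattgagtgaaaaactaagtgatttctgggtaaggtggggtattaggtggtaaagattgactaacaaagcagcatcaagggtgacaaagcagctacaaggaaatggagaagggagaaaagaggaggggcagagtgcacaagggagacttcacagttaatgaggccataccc

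Serping1, C1 inhibitor (ENSMUSG00000023224, chr2:84765387-84775444, reverse strand), was barely transcribed, with 388 counts over all libraries. It had 16, 25, 12, 11 and 71 counts in ARG1+ and 21, 41, 6, 44 and 141 counts in ARG1- libraries of m2, m6, m234, m235 and m236. In CPM these were 0.554, 0.800, 0.379, 0.325 and 2.28 against 0.686, 1.16, 0.715, 1.56 and 4.74, so both libraries of m236 stood above the rest and the groups overlapped. Among ARG1+ libraries only that of m236 was above 1 CPM, so the gene was tested because of its ARG1- libraries. The ARG1+ library was lower in each animal, with a log2 fold change of -1.06 (SE 0.630, 95% interval -2.43 to 0.32, edgeR FDR 0.283). That value moved most with m236: it was -0.26 without the ARG1- library of m236 (FDR 0.793) and -1.81 without its ARG1+ library (FDR 0.0810). With the block it was -0.98 (SE 0.269, FDR 0.0184), which passed in 3 of 4 fits that left out 1 animal (FDR 0.0572 without m235), and without m236 the gene was under the filter on low counts.

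The anaphylatoxin receptors showed small differences. C3ar1, the receptor for C3a (ENSMUSG00000040552, chr6:122847138-122856161, reverse strand), read 307, 264, 251.8, 320 and 321 CPM in ARG1+ and 274, 251.5, 259, 257 and 286 CPM in ARG1- libraries. In 4 animals ARG1+ cells had more of it in CPM and in m234 less (a log2 difference of -0.043). That difference is about the size of the median shift in CPM given above, so its direction is uncertain. The log2 fold change was 0.18 (SE 0.0773, 95% interval 0.012 to 0.35, edgeR FDR 0.139). With the block it was 0.18 (SE 0.0473, FDR 0.0163), and the call was lost without m2 (FDR 0.0724) and without m235 (FDR 0.0548). C5ar1, a C5a receptor (ENSMUSG00000049130, chr7:16246743-16259540, reverse strand), read 154, 166, 133, 182 and 193 CPM in ARG1+ and 174, 176, 161, 177 and 200 CPM in ARG1- libraries. It was lower in 4 animals, with a log2 fold change of -0.062 (SE 0.0966, 95% interval -0.27 to 0.15, FDR 0.710), and it did not pass with the block (FDR 0.269). C3ar1 over C5ar1, also picked after seeing the values, was 1.59 to 1.99 in ARG1+ and 1.43 to 1.62 in ARG1- libraries, higher in ARG1+ in all 5 animals and overlapping between groups.

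The window before C3ar1 (chr6:122856162-122856407, reverse strand, same source) is shown because C3ar1 passed with the block; its capitals mark a half-MARE, found in 15.9% of all windows of this length.
C3ar1: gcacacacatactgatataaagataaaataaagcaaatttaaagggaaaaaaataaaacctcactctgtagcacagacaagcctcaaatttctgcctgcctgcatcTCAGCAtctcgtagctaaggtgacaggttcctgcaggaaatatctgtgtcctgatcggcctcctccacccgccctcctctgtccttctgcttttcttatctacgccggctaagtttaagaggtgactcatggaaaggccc

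Beyond the 9 genes, the complement lists held 45 others, of which 15 were above the filter. Of these 15, 1 was called higher in ARG1+ cells and 2 lower, where 13% of all tested genes were called in either direction. The median log2 fold change of the 15 was 0.07. Those lower were C4b (log2 fold change -0.79, SE 0.198, edgeR FDR 0.0238) and C4a (-0.82, SE 0.213, FDR 0.0271). C4b encodes the C4 protein that C1s cuts, and C4a is its close copy in the mouse. C4b read 124, 144, 127, 107 and 165 CPM in ARG1+ and 212, 202, 389, 169 and 215 CPM in ARG1- libraries, the groups not overlapping. C4a ran from 23.2 to 36.0 CPM in ARG1+ and from 36.1 to 91.9 CPM in ARG1- libraries. Of the 50-base stretches in C4b and C4a, 34.6% and 30.6% also occur in the other gene letter for letter, so how reads were split between them is uncertain. Without the ARG1- library of m234 both were still called, with log2 fold changes of -0.54 and -0.56 (edgeR FDR 0.0116 and 0.0120). The microglia marker sum correlated with C4b and C4a at r = 0.898 and 0.913, and at 0.731 and 0.761 without that library. The call on C4b was lost in 3 of 15 fits that left out 1 library or 1 animal: without the ARG1+ library of m2 (FDR 0.0607), without m2 (0.0866) and without m6 (0.0697). That on C4a was lost in 6 of 15, namely when ARG1+ cells of m2, m6 or m235, or animal m2, m6 or m236, were left out (FDR 0.0532 to 0.0957).

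Itgam, the alpha chain of complement receptor 3, was the gene called higher. It read 590, 563, 459, 619 and 481 CPM in ARG1+ and 453, 464, 392, 492 and 383 CPM in ARG1- libraries, higher in all 5 animals with overlapping groups. The log2 fold change was 0.35 (SE 0.0997, 95% interval 0.13 to 0.57, edgeR FDR 0.0385), and 5 of 15 fits that left out 1 library or animal kept the call (FDR 0.0228 to 0.154 over the 15). Those were the fits without the ARG1+ library of m234 or m236, the ARG1- library of m235, or animal m234 or m235. The annotated Gm49368 overlaps 70.0% of its exon bases and had 146 counts over all libraries, and reads lying in both are not counted. The other 4 tested receptors did not pass. Their log2 fold changes were 0.21 for Itgb2, its beta partner (FDR 0.197), -0.35 for Itgax (FDR 0.441), -0.52 for C5ar2, lower in all 5 animals (FDR 0.0764), and 0.07 for C1qbp (FDR 0.552).

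With the animal as a block, 5 of the 15 were higher and 5 lower, where 35.1% of all tested genes were called (16.8% higher and 18.3% lower). The C1r genes C1ra (block log2 fold change 0.48, SE 0.0795, FDR 0.00128) and C1rb (0.48, FDR 0.00352), Itgam, Itgb2 and the membrane regulator Cr1l were higher in ARG1+ cells, and C4a, C4b, Itgax, C5ar2 (-0.51, FDR 0.00909) and Masp1 were lower. C1ra and C1rb share 50.8% and 60.5% of their stretches, so their reads are uncertain too. Those that passed whichever animal was left out were C1ra, C1rb, C4a, C4b, C5ar2, Itgam and Itgax; these were named after their values were seen.

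**Figure D5:**
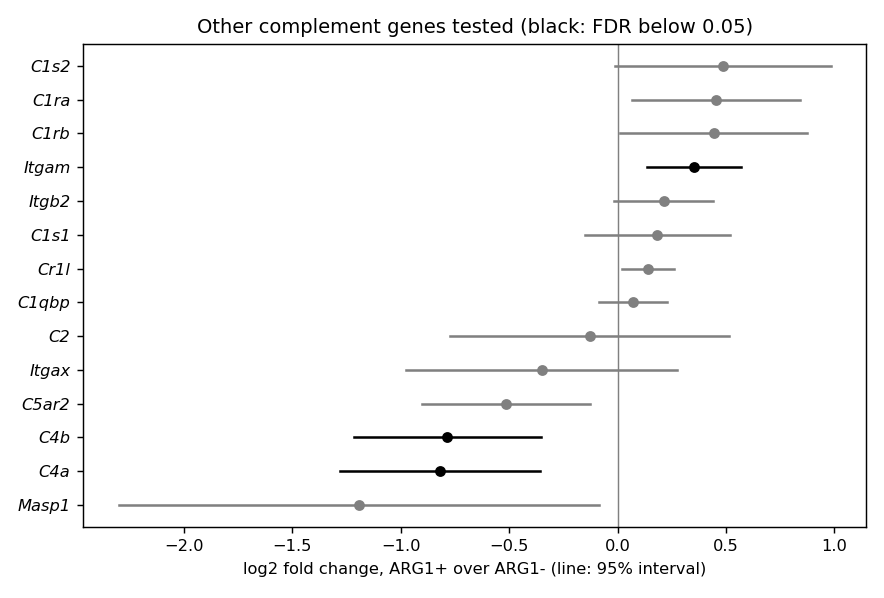
Log2 fold change (ARG1+ over ARG1-) of 14 of the 15 other tested complement genes with its 95% interval. Black marks the 3 genes with an FDR below 0.05: Itgam to the right, C4b and C4a to the left.

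Of the 45 other genes, 30 were under the filter. The 7 genes of the terminal pathway, which build the membrane attack complex, had 107 counts in all and none was tested. Of the 54 genes in the lists, 9 had 0 counts in every library, among them the mannose-binding lectins Mbl1 and Mbl2, C9, Vsig4 and Cr2; the 289123049 counts together allow a level of up to 0.0104 CPM (3 counts), which covers counting error only. Of 15 regulators other than Serping1, 2 were tested and 0 called by edgeR, with 1 at an unadjusted p below 0.05, Cr1l (log2 fold change 0.14, FDR 0.113).

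Transcription factors linked to these genes were listed as well. Of 9 tested, 3 were lower in ARG1+ cells and 0 higher: Nfkb1 (log2 fold change -0.43, edgeR FDR 0.00417), Rela (-0.21, FDR 0.0219) and Spi1, which encodes PU.1 (-0.21, FDR 0.0226), where 6.15% of all tested genes were called lower.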

How the data were processed

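RNA-seq libraries were made by the authors from sorted cells of 5 mice with EAE, with the NEBNext Ultra II Directional kit. Reads were aligned to GRCm38 with STAR (2.7.10b per the submitters' processing notes) and counted per gene with summarizeOverlaps in Union mode; no source used here states strand use in counting. The deposited values are raw counts of reads per gene, with 0 sample columns left unused.

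Genes above 1 CPM in at least 3 libraries were tested with edgeR 4.0.16 (quasi-likelihood test, TMM library sizes, group only) and adjusted by Benjamini-Hochberg over 13740 genes at an FDR of 0.05; the study's methods set the same filter, use limma-trend and state no block. Alternatives were limma-trend (limma 3.58.1), DESeq2 1.42.0, other library sizes and filters, the animal as a block, and fits leaving out 1 library or 1 animal. Exact permutation tests used log2(CPM + 0.5). The fit was tested on simulated data. Each animal pairs the libraries by label: deviations from group means correlated at 0.361 to 0.66 within animals and at -0.367 to 0.0672 between them. Named were the 9 genes, listed genes that were called, the most abundant of each list, overlapping genes, and for each of the 9 the 2 genes most alike by Pearson correlation among those with a mean CPM of at least 10. Results of 2 listed genes are not reported here. The members and lists were chosen with earlier results of these data known. Figures were drawn with matplotlib 3.10.9.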

Additional observations from a re-analysis of the deposited data

Results flagged for a closer look

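In 26 groups of 5 libraries (the 9 genes, C4a, C4b, Itgam and the summed microglia markers in ARG1+ and in ARG1- cells), the highest or lowest library was set against the rest of its group; chance marks about 1 in 20 groups, and 5 were marked. Cfb in the ARG1- library of m2 was the lowest at 33.2 CPM, the next being 48.4 CPM. Serping1 in both libraries of m236 was the highest of its group, at 2.28 CPM in ARG1+ (next 0.80 CPM) and 4.74 CPM in ARG1- (next 1.56 CPM). C4a at 91.9 CPM and C4b at 389.0 CPM were the highest in the ARG1- library of m234, the next being 48.3 and 215.0 CPM.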

How the results depend on the processing

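Counts of called genes depended on the animal block most: members higher and lower were 0 and 0 without it and 2 and 2 with it. Other complement genes called higher (1) were 0 with total counts as library sizes, 2 with filterByExpr, 2 with no filter, 5 with the block and 0 with an added limit of 1 on the absolute log2 fold change; those called lower (2) were 4 with DESeq2, 5 with the block and 0 with that added limit. With 1 library or animal left out, members stayed at 0 called, and other genes ran from 0 to 2 in each direction. In block fits without 1 animal, which were chosen after seeing the data, members ran from 1 to 2 in each direction, and other genes from 3 to 7 higher and from 4 to 5 lower. C1qb turned to a log2 fold change of 0.00078 with upper-quartile library sizes and 0.0039 with no filter, and with libraries left out C1qb ran from -0.11 to 0.11, C1qc from -0.15 to 0.15 and C5ar1 from -0.12 to 0.0084. The other members kept their direction, C1qa running from -0.40 to -0.069, C3 from 0.071 to 0.22, Cfb from -0.49 to -0.23, Cfp from 0.29 to 0.51, Serping1 from -1.81 to -0.26 and C3ar1 from 0.14 to 0.23. The ratios of C1qa to C1qb and to C1qc kept their direction (log2 difference -0.28 to -0.18 and -0.27 to -0.21). The cause of these shifts was not tested. Serping1 gave 14 of 15 such fits, the filter dropping it in the other; at 6 to 141 counts per library its depth limits it. No alternative was left unrun.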
